A study of Mus musculus with 24 samples.

Results

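Of the 38920 genes kept from the deposited tables, 10 are described here. They are Hspa1a, Hspa1b, Hspb1, Hspb8, Dnajb1, Hsph1, Hspa8, Hspd1, Hspe1 and Bag3, taken by symbol as a set of genes of the heat-shock response driven by the transcription factor HSF1, and all 10 were found in each of the 4 tables. RNA was sequenced from primary mouse neurospheres, cultures of stem and progenitor cells that float as cell clusters, derived from embryonic day 14.5 cerebral cortex or hypothalamus and used at passage 3. The 8 groups of 3 biological replicates were female cortex with 100 nM dexamethasone and with ethanol vehicle, male cortex with dexamethasone and with vehicle, female hypothalamus with dexamethasone and with vehicle, and male hypothalamus with dexamethasone and with vehicle. Exposure lasted 4 hours. Dexamethasone is a synthetic glucocorticoid, and the question of the study was how the response to it differs between the sexes and between the 2 regions. The labels named no mouse strain or allele, nor whether a replicate came from a single embryo, a litter or a pool.

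When proteins unfold, HSF1 is released from chaperones, forms trimers and binds heat-shock elements, inverted repeats of short GAA units, upstream of chaperone genes. Hsp70 proteins (Hspa1a, Hspa1b and the constitutive Hspa8) bind exposed hydrophobic stretches in cycles of ATP hydrolysis, J-domain proteins such as Dnajb1 start the cycle, and Bag3 and Hsph1 release the nucleotide that ends it. Hspb1 and Hspb8 are small heat-shock proteins that hold unfolded clients without ATP. Hspd1 and Hspe1 encode the chaperonin of mitochondria and its lid, so the set is not made up of cytosolic proteins alone. Hspa8 is transcribed constitutively in neural cells, whereas Hspa1a and Hspa1b are classed as stress-inducible.

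Depth was 16.39 to 20.94 M reads per library in cortex and 16.04 to 25.49 M in hypothalamus. The share of reads on mt-Rnr2, a mitochondrial ribosomal RNA, was 1.09% to 2.67% in cortex but 21.3% to 40.0% in hypothalamus. All 6 neural stem cell markers on a list (Nes, Sox2, Vim, Fabp7, Sox9 and Pax6) reached 1 read per M reads (RPM) in the median library of both regions, whereas of 4 hypothalamic markers Nkx2-1, Rax and Six6 were below 1 RPM in both and Six3 was above it in both. Six3 averaged 3.46 to 5.72 RPM over the 4 hypothalamus groups and 0.770 to 2.04 RPM over the 4 cortex groups. The X-inactivation transcript Xist was at 306 to 771 RPM in female libraries and at most 0.77 RPM in 10 male ones, but at 30.1 RPM in the dexamethasone library and 26.4 RPM in the vehicle library of male hypothalamus replicate 2, so the tests of that comparison are also given without it. The established glucocorticoid targets Fkbp5, Zbtb16 and Per1 rose in all 4 comparisons, by 2.36 to 3.40, 3.74 to 4.34 and 0.86 to 2.09 on the log2 scale. Tsc22d3 rose in 3 of them, and in male hypothalamus its log2 change was 2.59 (limma adjusted p = 0.0522).

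The upstream sequences of Hspa1a, Hspa1b and Hspb1 are shown first, because the log2 changes furthest from 0 among the 10 genes were those of the Hsp70 pair in cortex, which were negative, and of Hspb1 in hypothalamus, which were positive. These are the 250 bases before the start of the RefSeq transcript, in GRCm38.p6, 5′ to 3′ on the strand of the gene, and capitals mark matches to GAANNTTC or TTCNNGAA, a pair of inverted GAA units on either strand.
Hspa1a, chr17:34972157-34972406, minus strand: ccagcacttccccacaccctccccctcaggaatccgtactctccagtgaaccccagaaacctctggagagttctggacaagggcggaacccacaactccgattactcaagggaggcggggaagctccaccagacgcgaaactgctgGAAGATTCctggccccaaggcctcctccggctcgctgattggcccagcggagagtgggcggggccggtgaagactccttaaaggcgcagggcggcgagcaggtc
Hspa1b, chr17:34959239-34959488, minus strand: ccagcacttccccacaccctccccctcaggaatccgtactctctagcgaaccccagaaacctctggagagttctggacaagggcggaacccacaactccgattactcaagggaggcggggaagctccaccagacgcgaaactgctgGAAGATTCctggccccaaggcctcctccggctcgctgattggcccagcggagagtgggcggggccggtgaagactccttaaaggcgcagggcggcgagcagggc
Hspb1, chr5:135887669-135887918, plus strand: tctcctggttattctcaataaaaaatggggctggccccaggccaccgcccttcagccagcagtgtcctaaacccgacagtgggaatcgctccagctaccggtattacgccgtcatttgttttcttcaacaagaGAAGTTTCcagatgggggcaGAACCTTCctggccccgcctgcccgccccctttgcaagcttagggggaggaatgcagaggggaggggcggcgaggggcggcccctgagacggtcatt
Hspa1a and Hspa1b matched at 247 of these 250 bases. The substitutions, Hspa1a base first and counted from 1 at the 5′ end of the window, were C44T, T47C and T249G. Each of the pair held 1 match, GAAGATTC, beginning 104 bases before the start, and Hspb1 held 2, GAAGTTTC at 117 and GAACCTTC at 97 bases before the start. Of all 32851 windows of this length in the RefSeq table, 12.8% held such a match. A longer form has 3 GAA units, each inverted to the next at the same spacing of any 2 bases, on either strand. It was in 0.466% of the windows. Among the genes described it was in the Hspe1 window and in the Hspd1 window chr1:55087933-55088182, which overlap. The other Hspd1 window, chr1:55088244-55088493, held 0 matches of either form. That window lies just before the annotated start of Hspd1, so the shared site is inside the annotated Hspd1 gene.
Hspe1, chr1:55088059-55088076, plus strand, 89 bases before the start: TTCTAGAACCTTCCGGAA
Hsph1, chr5:149636362-149636369, minus strand, 33 bases before the start: TTCTCGAA
The Hspe1 stretch is shown because it joins 3 overlapping matches, and the Hsph1 one because it was the sole match of that gene. Of the 9 genes with a RefSeq window, 6 held a match in a window (Hspd1 not in each of its windows) and 3 (Bag3, Dnajb1 and Hspb8) held none in these 250 bases. A match is a description of letters and not a binding site, and Hspa8 had no entry in the table.

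In the annotation (GENCODE vM21, GRCm38) Hspa1a spans positions 34969190 to 34972156 and Hspa1b positions 34956436 to 34959238 of chromosome 17, both on the minus strand with starts 12918 bases apart. Of the 50-base stretches of the Hspa1a transcript, 58.8% occur letter for letter in that of Hspa1b, and 0% occur in that of Hspa8. The counts of Hspa1a and Hspa1b therefore cannot be fully separated, and the change of their sum is given beside the tests of the pair. Hspa1a also overlaps Gm20481 on the opposite strand, Hspa8 holds small nucleolar RNA genes in its introns, Bag3 overlaps 2610306O10Rik, and Hspd1 and Hspe1 overlap head to head over 112 bases. The strand setting of the counting was not stated in the labels or file headers, so reads in these overlaps cannot be assigned to 1 gene with certainty.

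On a scale of RPM per kb of exon, the 10 genes covered a wide range in vehicle cultures. Hspa8 was highest, at 190 in female cortex, 234 in male cortex, 144 in female hypothalamus and 167 in male hypothalamus. The chaperonin genes came next, Hspe1 at 89.4 to 146 and Hspd1 at 95.5 to 144 over the 4 vehicle groups. Dnajb1 was at 29.2 and 35.3 RPM per kb in female and male cortex and 10.2 and 11.5 in hypothalamus, and Hsph1 at 19.1 and 23.5 against 10.9 and 11.4. Hspa1a and Hspa1b were at 10.2 to 15.9 RPM per kb in vehicle cortex and at 0.0845 to 0.540 in vehicle hypothalamus. Bag3 was at 8.20 and 5.78 in cortex and 0.879 and 0.327 in hypothalamus, and Hspb8 (1.21 to 2.54) and Hspb1 (0.198 to 1.37) were low in both regions.

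**Figure D1:**
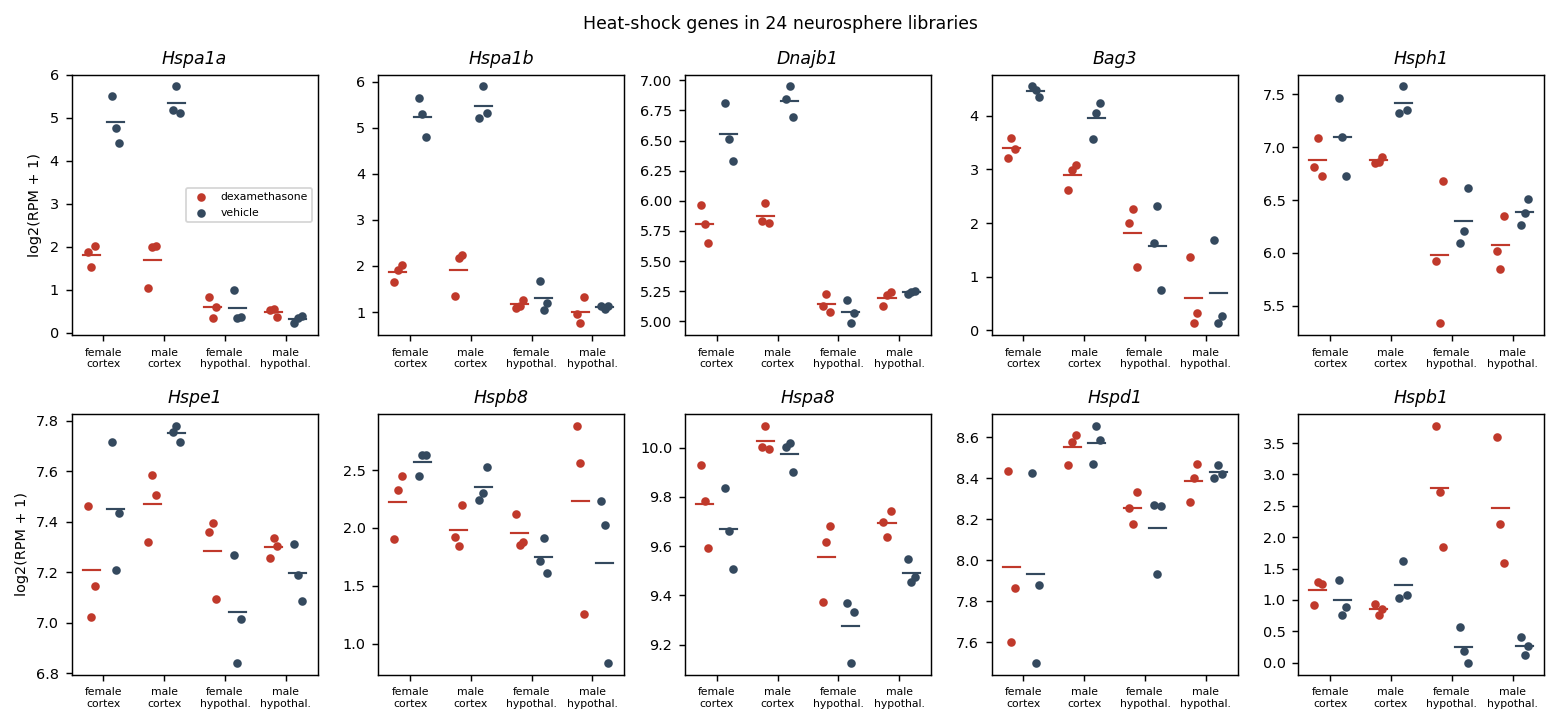
Level of each of the 10 heat-shock genes, as log2(RPM + 1) on the vertical axes (scaled per gene), in dexamethasone (red) and vehicle (dark) libraries of the 4 cultures, with 1 point per library and a line at the mean of the 3. The red points of Hspa1a, Hspa1b, Dnajb1 and Bag3 lie below the dark ones in both cortex cultures, and those of Hspb1 lie above them in both hypothalamus cultures.

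In female cortex the inducible Hsp70 genes and the co-chaperone gene Bag3 fell after dexamethasone. Hspa1a had 2.69, 1.88 and 3.03 RPM in the dexamethasone libraries, against 44.9, 26.1 and 20.2 RPM in the vehicle libraries. Hspa1b had 2.13, 2.76 and 3.08 RPM with dexamethasone, against 48.7, 38.5 and 26.6 RPM with vehicle. For both genes every dexamethasone library was below every vehicle library, and the means differed 11.98-fold and 14.3-fold. The log2 change was -3.09 ± 0.31 for Hspa1a (SE, limma adjusted p = 0.00811) and -3.38 ± 0.24 for Hspa1b (adjusted p = 0.00304), and that of their summed values was -3.44 (adjusted p = 0.00328). Because these are bulk cultures, fewer cells with the transcript and less transcript per cell cannot be told apart.

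Bag3, a nucleotide exchange factor that links Hsp70 to autophagy, had 8.31, 11.04 and 9.43 RPM in female cortex with dexamethasone, against 22.4, 21.3 and 19.3 RPM with vehicle. Its groups did not overlap and its log2 change was -1.06 ± 0.15 (adjusted p = 0.0229). Dnajb1, the J-domain partner of the inducible Hsp70, had 61.4, 55.1 and 49.1 RPM with dexamethasone, against 111, 90.5 and 79.3 RPM with vehicle. Its groups did not overlap either, but it missed the threshold, with a log2 change of -0.74 ± 0.15 (adjusted p = 0.0528).

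Of the 10 genes, 3 were called lower and 0 higher in female cortex, where 3.02% of all 13314 genes tested were called lower and 1.4% higher. Dexamethasone and vehicle libraries did not overlap for 4 of the 10, against 28.6% of all genes tested, and the median log2 change of the 10 was -0.29, against 0.02 over all genes. The remaining 6 genes overlapped between groups. Hsph1, the Hsp110 exchange factor, averaged 117 RPM with dexamethasone and 139 RPM with vehicle (log2 change -0.22, adjusted p = 0.625), and Hspe1 averaged 148 and 176 RPM (-0.24, adjusted p = 0.497). Hspb8 (-0.34), Hspb1 (0.17), Hspa8 (0.10) and Hspd1 (0.03) had adjusted p of 0.366 to 0.972. With the replicate number as a block, which pairs the libraries of this table, 5 genes were called lower, Dnajb1 (adjusted p = 0.000147) and Hspe1 (adjusted p = 0.0141) in addition, against 18.2% of all genes called lower in that fit. Without replicate 2 of both groups 0 of the 10 were called (adjusted p of Hspa1a 0.203, Hspa1b 0.146 and Bag3 0.269), and without replicate 3 also 0 (0.258, 0.168 and 0.459), when 2 and 0 of all genes tested were called. Of single libraries, leaving out dexamethasone replicate 3 ended the call of Hspa1a (adjusted p = 0.0532), and Bag3 was lost without any 1 library other than dexamethasone replicate 1 (0.0579 to 0.142).

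In male cortex 7 of the 10 genes fell after dexamethasone, the Hsp70 pair most. Hspa1a had 1.07, 2.96 and 3.02 RPM in the dexamethasone libraries, against 35.5, 52.1 and 33.8 RPM in the vehicle libraries. Hspa1b had 1.55, 3.50 and 3.68 RPM with dexamethasone, against 35.8, 58.6 and 39.2 RPM with vehicle. In both genes the highest dexamethasone library was far under the lowest vehicle library, and the means differed 17.2-fold and 15.3-fold. The log2 changes were -3.67 ± 0.25 (adjusted p = 2.6e-06) and -3.56 ± 0.24 (adjusted p = 2.43e-06), and -3.83 for the sum (adjusted p = 3.2e-06).

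The 3 co-chaperones of Hsp70 fell as well in male cortex. Dnajb1 had 56.0, 62.3 and 55.4 RPM with dexamethasone, against 114, 122.6 and 102.5 RPM with vehicle, a log2 change of -0.95 ± 0.08 (adjusted p = 7e-06). Bag3 had 5.14, 6.89 and 7.52 RPM with dexamethasone, against 10.9, 15.7 and 17.9 RPM with vehicle, a log2 change of -1.06 ± 0.18 (adjusted p = 0.000827). Hsph1 had 114, 115 and 119 RPM with dexamethasone, against 159, 189.5 and 163 RPM with vehicle, a log2 change of -0.54 ± 0.07 (adjusted p = 0.000143). For all 3 the groups did not overlap.

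Hspe1, the lid of the mitochondrial chaperonin, had 159, 191 and 181 RPM in male cortex with dexamethasone, against 215, 219 and 209.5 RPM with vehicle (log2 change -0.28 ± 0.07, adjusted p = 0.0064). Its neighbour Hspd1, which lies head to head with it on the other strand, overlapped between groups at 374 RPM with dexamethasone and 380 RPM with vehicle on average (-0.02, adjusted p = 0.814). Hspa8 averaged 1044 RPM with dexamethasone and 1005 RPM with vehicle (0.05, adjusted p = 0.448). So in the libraries where the inducible pair fell, no change of the constitutive Hsp70 gene was detectable. The 95% interval of the Hspa8 change ran from -0.07 to 0.18.

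The small heat-shock genes had few reads in cortex. Hspb8, a partner of Bag3, had 2.78, 2.58 and 3.58 RPM in male cortex with dexamethasone, against 3.73, 3.95 and 4.76 RPM with vehicle (log2 change -0.37 ± 0.13, adjusted p = 0.0434). That call was lost without dexamethasone replicate 1 or 2 or vehicle replicate 2 or 3 (adjusted p 0.0788 to 0.144), with DESeq2 (0.0926) and with no filter on low values (0.128). Hspb1 had 0.910, 0.700 and 0.819 RPM with dexamethasone, against 1.04, 2.09 and 1.11 RPM with vehicle, from 13 to 37 reads per library, and missed the threshold (-0.39 ± 0.17, adjusted p = 0.0909).

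In this table the background was high. Of 13205 genes tested 20.9% were called lower and 26.7% higher, against 7 lower and 0 higher of the 10, and the groups of 8 of the 10 did not overlap, against 56.9% of all genes. The median log2 change was -0.47 for the 10 and 0.04 over all genes. In cortex of both sexes the summed neuronal markers were at 1021 to 1376 RPM with dexamethasone and 741 to 997 RPM with vehicle, with 5 of 6 markers at 1 RPM in either group. Most of that sum was Map2, at 1188 and 844 RPM in females and 1111 and 786 RPM in males, whereas Neurod1 averaged 1.35 and 2.92 RPM in females and 0.829 and 2.44 RPM in males. Astrocyte markers summed to 1425 to 2696 RPM with dexamethasone and 1019 to 2047 RPM with vehicle, ranges that overlap, with 6 and 5 of 6 at 1 RPM. Most of that sum was Slc1a3, at 1424 and 1101 RPM in females and 1354 and 1065 RPM in males. S100b averaged 11.7 and 10.2 RPM in females and 3.21 and 3.43 RPM in males. Gfap ran from 8.03 to 554 RPM between the female dexamethasone libraries. Oligodendrocyte markers summed to 1785 to 2437 and 1184 to 1709 RPM, with 6 of 6 in both. Reads on mt-Rnr2 took 1.09% to 1.96% and 1.71% to 2.67%. The sum of endothelial markers was lower with dexamethasone, at 2.94 to 3.89 RPM against 4.79 to 7.40 RPM with vehicle, with 1 and 2 of 6 at 1 RPM. Neural stem markers summed to 5544 to 6712 and 6039 to 7235 RPM and contractile ones to 10.2 to 17.7 and 14.1 to 22.3 RPM, both with overlapping ranges. Of the neural stem markers Sox9 averaged 82.7 and 153 RPM in females and 57.5 and 129 RPM in males, whereas Pax6 averaged 47.5 and 44.0 RPM and 42.2 and 34.7 RPM. The part of these markers in the falls was not tested. Microglial markers summed to at most 0.314 RPM in cortex with dexamethasone and 0.274 RPM with vehicle.

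The authors' deposited table also had the pair lowest in cortex, then Bag3 and Dnajb1. Its log2 fold changes were -3.57 (female) and -4.10 (male) for Hspa1a, -3.84 and -3.93 for Hspa1b, and -0.76 and -0.97 for Dnajb1, with adjusted p at or below 6.84e-05. Bag3 was at -1.14 (adjusted p = 7.58e-07) and -1.18 (4.57e-07) there. In male cortex the authors' deposited table gave Hsph1 an adjusted p of 0.0163, Hspe1 0.502 and Hspb8 0.397, so the last 2 calls above are not shared by it.

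In hypothalamus the Hsp70 pair had few reads with or without the hormone. Hspa1a had 0.786, 0.261 and 0.510 RPM in female hypothalamus with dexamethasone, against 0.980, 0.278 and 0.282 RPM with vehicle, and 35 reads in each group. In male hypothalamus it had 0.443, 0.457 and 0.299 RPM with dexamethasone, against 0.163, 0.276 and 0.313 RPM with vehicle. It stayed under the filter of 1 RPM in 3 libraries and was not tested in either sex. Hspa1b averaged 1.25 RPM with dexamethasone and 1.51 RPM with vehicle in female hypothalamus (log2 change -0.14, 95% interval -0.59 to 0.31, adjusted p = 0.858). In male hypothalamus it averaged 1.04 and 1.16 RPM (-0.10, -0.53 to 0.33, adjusted p = 0.923). The log2 change of the summed pair was -0.09 in females (adjusted p = 0.934) and 0.01 in males (adjusted p = 0.991).

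Hspb1 had higher values with dexamethasone in hypothalamus. In female hypothalamus it had 12.7, 5.59 and 2.59 RPM in the dexamethasone libraries (459 reads in all), against 0.490, 0.139 and 0 RPM in the vehicle libraries (14 reads in all). In male hypothalamus it had 11.1, 3.61 and 1.99 RPM with dexamethasone (294 reads), against 0.326, 0.0920 and 0.196 RPM with vehicle (13 reads). The groups did not overlap in either sex, and the means differed 33.2-fold in females and 27.2-fold in males. The level varied several-fold between replicates: in both sexes dexamethasone replicate 1 was highest and replicate 3 lowest.

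On the log2(RPM + 1) scale, which understates the change of a gene this low, the Hspb1 change was 2.53 ± 0.45 in females (limma adjusted p = 0.0631) and 2.20 ± 0.47 in males (adjusted p = 0.200), so neither passed. With the replicate number as a block, which pairs the libraries in both hypothalamus tables, both passed (adjusted p = 0.000477 and 0.000857). In females it also passed without dexamethasone replicate 3 (adjusted p = 0.0264). In males without replicate 2, the number with Xist reads, the log2 change was 2.25 (adjusted p = 0.9999), in a fit that called 0 of all genes, and with the block on the 2 pairs left it passed (adjusted p = 0.00558). DESeq2 called it on the recovered reads in both sexes (adjusted p = 0.00748 and 2.54e-07), whereas edgeR on the same reads called it in neither. The authors' deposited table gave folds of 32.8 (adjusted p = 1.52e-06) and 26.7 (1.13e-05). Hspb1 passed the filter on low values in hypothalamus only through the dexamethasone libraries. Contractile cell markers, whose cells are rich in Hspb1, summed to 49.3 to 78.5 RPM with dexamethasone and 37.7 to 97.1 RPM with vehicle, with 3 and 4 of 6 at 1 RPM, and endothelial ones to 4.65 to 24.0 and 5.87 to 25.8 RPM, and these ranges overlap. Their part in the Hspb1 values was not tested.

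The other genes of the set that were tested had log2 changes between -0.33 and 0.54 in hypothalamus. Dnajb1 had 34.0, 36.5 and 32.9 RPM in females with dexamethasone, against 35.2, 30.6 and 32.6 RPM with vehicle, and 33.9, 36.2 and 36.9 RPM in males with dexamethasone, against 36.6, 36.9 and 37.1 RPM with vehicle. The groups overlapped in both sexes, and the 95% intervals of the log2 change ran from -0.16 to 0.30 in females and from -0.23 to 0.14 in males. Hspa8 averaged 755 RPM with dexamethasone and 620 RPM with vehicle in females (0.28, adjusted p = 0.559), and 827 and 720 RPM in males (0.20, adjusted p = 0.584), without overlap in either sex. Bag3 differed more between replicates than between treatments, at 3.01, 3.81 and 1.28 RPM in females with dexamethasone and 2.09, 3.98 and 0.686 RPM with vehicle, and in males it was too low for the test, at 2 to 41 reads per library.

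Of the 9 genes tested in female hypothalamus and the 8 tested in male hypothalamus, 0 were called, against 0.841% and 0.226% of all genes. At an unadjusted p under 0.05, 1 and 2 of them passed, against 1113 of 12491 and 960 of 12403 of all genes tested. DESeq2 called 1 in each sex, against 291 and 242 of all genes, and edgeR called 0 of the set. The groups of 2 did not overlap in either sex (Hspb1 and Hspa8), against 15.2% and 13.5% of all genes. The block called 1 of 9 in females, where it called 7.14% of all genes, and 3 of 8 in males, where it called 13.1%. The additional ones in males were Hspb8, which averaged 4.22 RPM with dexamethasone and 2.52 RPM with vehicle (log2 change 0.54, adjusted p = 0.0188), and Hsph1, at 67.0 and 82.6 RPM (-0.31, adjusted p = 0.0263). Without replicate 2 the block called Hspb1 alone of the 8, and Hspb8 (0.54, adjusted p = 0.129) and Hsph1 (-0.20, adjusted p = 0.272) were lost. Without replicate 2 and without the block the log2 changes of the other genes were 0.01 for Hspa1b, -0.06 for Dnajb1, 0.21 for Hspa8, -0.03 for Hspd1 and 0.08 for Hspe1, each with an adjusted p of 0.9999.

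**Figure D2:**
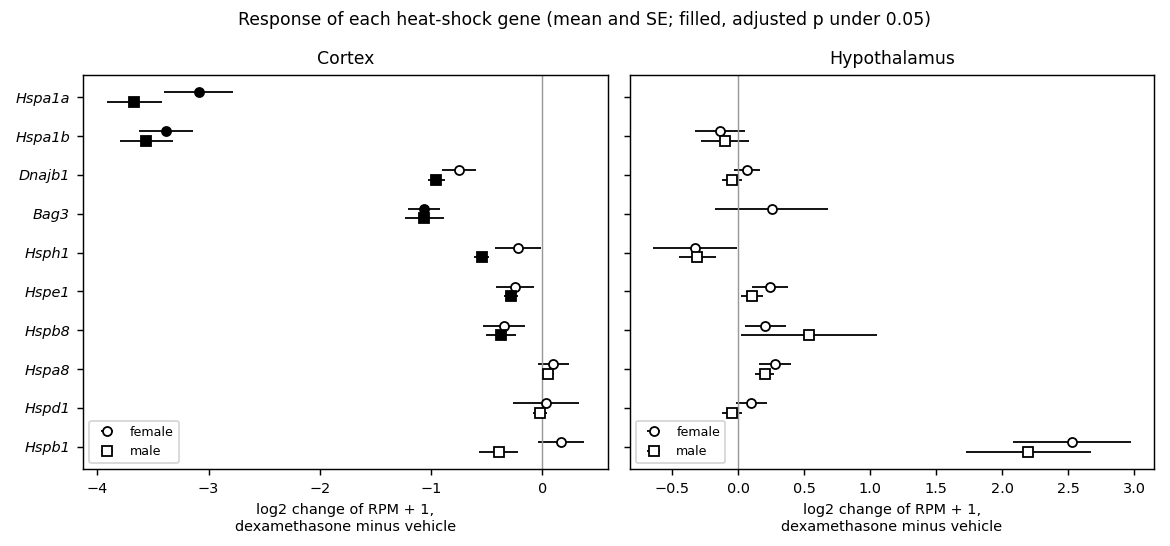
Log2 change of RPM + 1, dexamethasone minus vehicle, of each gene (mean and SE) in cortex (left) and hypothalamus (right), circles for females and squares for males, filled where the limma adjusted p was under 0.05. The filled points are the Hsp70 pair and Bag3 in cortex of both sexes, and Dnajb1, Hsph1, Hspe1 and Hspb8 in male cortex alone. Hspb1 lies at 2.53 and 2.20 in hypothalamus, and Hspa1a in both sexes and Bag3 in males had no test there.

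The response differed between regions for 5 of the 10 genes, each lower in cortex than in hypothalamus. The difference, the mean cortex response of both sexes minus the mean hypothalamus response, was -3.39 ± 0.28 for Hspa1a (limma adjusted p = 1.35e-07) and -3.25 ± 0.25 for Hspa1b (adjusted p = 4.41e-08), and for their sum it was -3.53 ± 0.28 (adjusted p = 7.67e-08). In vehicle hypothalamus Hspa1a averaged only 0.513 RPM (female) and 0.251 RPM (male), and Hspa1b 1.51 and 1.16 RPM. From these levels a fall as large as that in cortex could not be seen on the log2(RPM + 1) scale. For the pair the test therefore cannot tell a lacking response from a level too low to fall. Hspa1a passed the filter of this test only through cortex libraries. For Dnajb1 the difference was -0.85 ± 0.11 (adjusted p = 4.65e-05). Hspb1 differed by -2.67 ± 0.42 (adjusted p = 0.000288), which comes from its values in hypothalamus, since its cortex changes were 0.17 and -0.39. Hspe1 differed by -0.42 ± 0.14 (adjusted p = 0.0447), and lost the call without the replicates numbered 2 (0.233) or 3 (0.306) and with no filter on low values (0.0711), while the other 4 genes were called in these fits.

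Bag3, at -1.12 ± 0.45 (adjusted p = 0.108), and Hspb8, at -0.73 ± 0.35 (adjusted p = 0.187), did not pass. The 95% interval for Bag3 was -2.06 to -0.18 and that for Hspb8 -1.45 to -0.00079, and Hspb8 was called without the replicates numbered 3 (adjusted p = 0.048). With the replicate block both were called (adjusted p = 1.56e-05 for Bag3 and 0.000245 for Hspb8), and Bag3 also with a pseudocount of 5 RPM (0.0103). For Hsph1 (-0.05, interval -0.57 to 0.47), Hspa8 (-0.15, -0.37 to 0.07) and Hspd1 (-0.01, -0.42 to 0.40) no difference was detectable, which does not show that the regions responded alike. Over all 13932 genes tested 7.3% were called lower and 6.65% higher, against 5 lower and 0 higher of the 10. The median difference was -0.79 for the 10 genes and 0.04 for all genes. Region went together with the share of mt-Rnr2 reads and with separately normalized tables, and these cannot be told apart, although reads were scaled jointly for this test.

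For Hspa1a, Hspa1b, Bag3 and Dnajb1 the regions stood further apart in vehicle than in dexamethasone cultures. With all 24 libraries on 1 scaling, vehicle cultures had 37.7-fold (female) and 105.5-fold (male) more Hspa1a in cortex than in hypothalamus, 15.9-fold and 25.2-fold more Hspa1b, 5.91-fold and 11.6-fold more Bag3, and 1.81-fold and 2.01-fold more Dnajb1. Cortex and hypothalamus libraries did not overlap for any of these 4 genes. After dexamethasone the ratios were 3.17 and 3.79 for Hspa1a and 2.33 and 6.58 for Bag3, still without overlap. For Hspa1b they were 1.39 and 1.80, with overlapping libraries. Dnajb1 reached 44.9 RPM in cortex and 42.9 RPM in hypothalamus of females with dexamethasone, and 46.8 and 44.7 RPM in males, a ratio of 1.05 in both sexes with overlap. These ratios depend on the scaling: with the authors' scaling of each table they were 1.60 and 1.62 for Dnajb1 and 2.13 and 2.79 for Hspa1b after dexamethasone, without overlap. Hspb1 was the reverse, at 1.01 RPM in cortex and 8.71 RPM in hypothalamus of dexamethasone-treated females and at 0.654 and 6.96 RPM in males. No test was made of these levels, since the regions were deposited as separate tables.

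**Figure D3:**
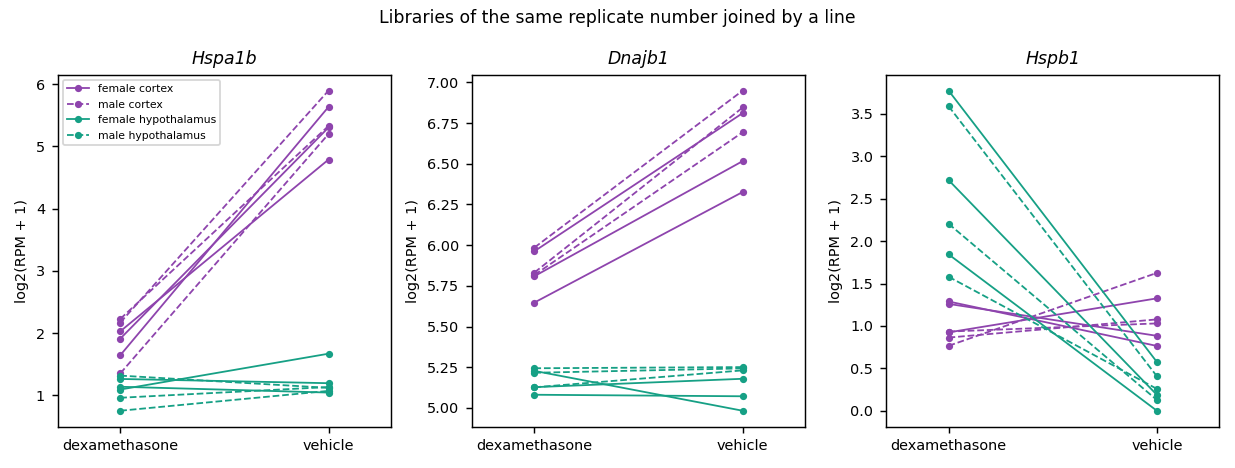
Log2(RPM + 1) of Hspa1b, Dnajb1 and Hspb1 in dexamethasone (left end) and vehicle (right end) libraries, with libraries of the same replicate number joined (purple cortex, green hypothalamus, solid female, dashed male). All 6 cortex lines of Hspa1b and Dnajb1 climb towards vehicle while those of hypothalamus stay low, and all 6 hypothalamus lines of Hspb1 climb towards dexamethasone.

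No difference in response between the sexes was called for any gene of the set, in a limma test that called 0 of 13680 genes in cortex (169 at an unadjusted p under 0.05) and 0 of 12843 in hypothalamus (33 unadjusted). The unadjusted p was under 0.05 for 0 of 10 genes in cortex and 0 of the 9 tested in hypothalamus, and edgeR also called 0. The female minus male difference for Hspa1a in cortex was 0.63 (95% interval -0.41 to 1.66) and for Hspa1b 0.22 (-0.67 to 1.11), so a difference of up to 1.66 on the log2 scale was within reach of the error. For Dnajb1 in cortex it was 0.25 (-0.20 to 0.69), for Bag3 0.04 (-0.53 to 0.61), and for Hspb1 in hypothalamus 0.33 (-1.25 to 1.91). The larger number of calls in male cortex is thus not shown to be a stronger response. The hypothalamus test includes male replicate 2, which had Xist reads. With the replicates of any 1 number left out, number 2 among them, that test also called 0 genes.

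Other genes of the heat-shock and chaperone network were read from 9 lists with 75 genes, of which 69 passed the filter in each table. In female cortex 6 were lower and 0 higher, against 3.02% lower and 1.4% higher of all genes. In male cortex 21 were lower and 5 higher, against 20.9% lower and 26.7% higher of all genes. In hypothalamus limma called 0 in either sex, against 0.841% of all genes in females and 0.226% in males. At an unadjusted p under 0.05, 2 passed in each, against 1113 of 12491 and 960 of 12403 of all genes. The list of 7 further stress genes bound by HSF1 held the largest share of calls. Of these, 4 of 7 fell in female cortex and 6 of 7 in male cortex. Hmox1, the heme oxygenase of the oxidative stress response, averaged 27.3 RPM with dexamethasone and 129 RPM with vehicle in female cortex (log2 change -2.19, limma adjusted p = 0.00283) and 26.6 and 156 RPM in male cortex (-2.49, adjusted p = 1.16e-06). Ier5, an immediate-early gene that acts on HSF1, averaged 30.9 and 97.8 RPM in females (-1.64, adjusted p = 0.00517) and 25.5 and 111 RPM in males (-2.08, adjusted p = 8.36e-08). The autophagy receptor gene Sqstm1 (-1.01 and -1.14) also fell in both sexes.

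In the other lists smaller shares were called, and in 2 of them in both directions. Over all genes 3.02% were called lower and 1.4% higher in female cortex, and 20.9% and 26.7% in male cortex. With so few genes per list, counts near these shares are not a result about a list. Of 13 other Hsp70 and cofactor genes tested, 1 fell in female cortex and 3 in male cortex: Hspa2 (-1.05 and -1.37), and in males Bag6 (-0.30) and Bag2 (-0.27). Of 8 other J-domain genes, Dnajb2 (-0.93 and -0.92) fell in both sexes and Dnajb5 (-0.78) in males. Of 9 genes of the Hsp90 system 4 fell in male cortex, the inducible Hsp90aa1 most (-0.44), then Cacybp (-0.31), Fkbp4 (-0.22) and Cdc37 (-0.19). Of 3 further small heat-shock genes Hspb6 fell in males (-0.59). Hsf1 itself was slightly lower in male cortex (-0.22, adjusted p = 0.0478), where 1 of 3 HSF genes tested was called. None of the 8 genes of the cytosolic chaperonin CCT was called in either sex. At an unadjusted p under 0.05, 0 of the 8 passed in females and 1 in males, against 2848 of 13314 and 7188 of 13205 of all genes. Of 8 mitochondrial chaperones and proteases 3 were higher in male cortex, among them Clpx (0.28) and Dnaja3 (0.21), and 2 lower, Hspa9 (-0.23) and Grpel1 (-0.17). Of 10 chaperones of the endoplasmic reticulum 2 rose in male cortex, Pdia4 (0.29) and Dnajb11 (0.15), and 2 fell, Dnajb9 (-1.45) and Pdia3 (-0.14). Under other scalings, filters, pseudocounts and tests 19 of the 26 calls in male cortex and 4 of the 6 in female cortex held in every fit. Those lost in at least 1 fit were Hsf1, Grpel1, Hspa9, Pdia3, Dnaja3, Trap1 and Dnajb11 in males, the last 3 with both edgeR and DESeq2 (adjusted p up to 0.0995, 0.155 and 0.198), and Sqstm1 (up to 0.0588) and Dnajb2 (0.0563) in females. With libraries left out these 7, Bag2, Bag6 and Cdc37 were lost in at least 1 fit in male cortex, and all 6 calls in female cortex were lost without replicate 2 of both groups and likewise without replicate 3.

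In the test between regions 12 of 70 genes of these lists were lower in cortex and 0 higher, against 7.3% lower and 6.65% higher of all genes. Of the stress genes bound by HSF1 6 of 7 were among them, led by Hmox1 (-2.11), Ier5 (-1.40) and Sqstm1 (-1.004). The others were Hspa2 (-1.19), Hspa1l (-0.58), which lies beside the Hsp70 pair, Dnajb2 (-0.83), Dnajb5 (-0.80), Dnajb9 (-1.23) and Clpp (-0.25). Hspa1l lost its call with a pseudocount of 5 RPM (adjusted p = 0.0583). Its value ran from -2.75 to -0.146 over 8 alternatives, so its size depends on the settings. Of the other Hsp70 and cofactor genes 14 were tested here, against 13 within each region and sex. When the replicates of 1 number were left out, 5 of the 12 lost their calls, among them Hspa1l, Dnajb5, Dnajb9 and Clpp. The members of the Hsp90 system, CCT and the HSF genes had 0 calls each in this limma test. At an unadjusted p under 0.05, 2, 0 and 0 of them passed, against 3717 of 13932 of all genes.

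**Figure D4:**
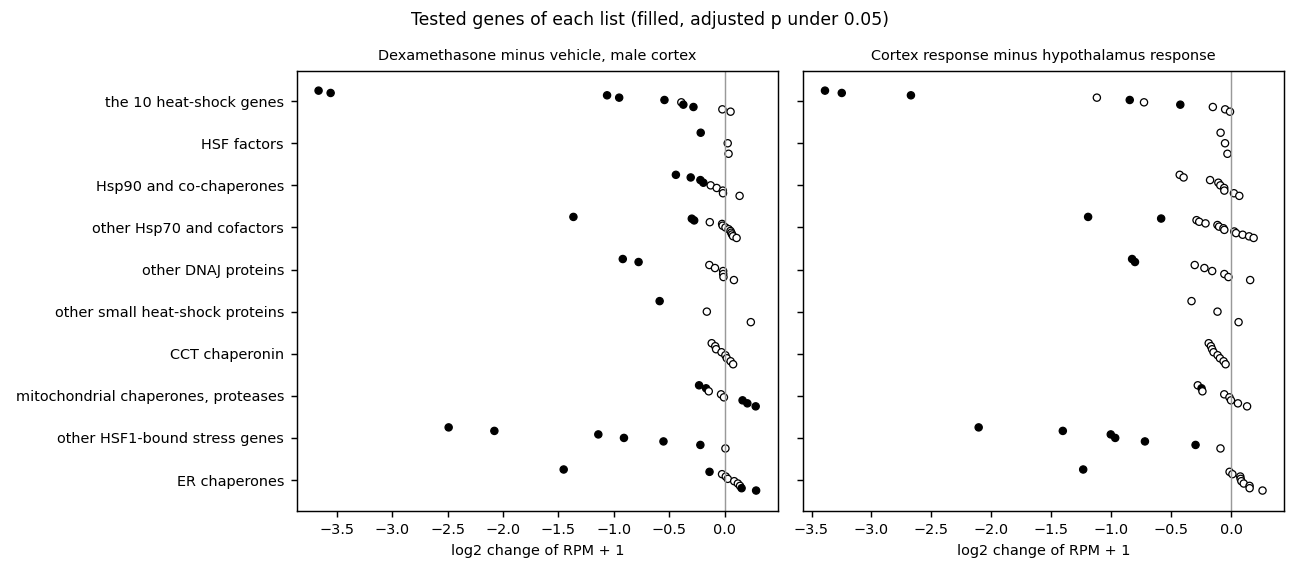
Log2 change of RPM + 1 of each tested gene, by list, for dexamethasone minus vehicle in male cortex (left) and for the cortex response minus the hypothalamus response (right), filled where the limma adjusted p was under 0.05. Values below -1 sit in the rows of the 10 heat-shock genes and of the other HSF1-bound stress genes, and singly in those of the other Hsp70 genes (Hspa2) and the endoplasmic reticulum (Dnajb9), while the CCT row stays near 0 with no filled point.

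The genes whose pattern was most like that of the summed Hsp70 pair were looked up among 8067 genes with at least 10 RPM in all 8 groups. Over the 24 libraries, centred on each table so that the treatment difference remains, Pearson's r was 0.976 for Hmox1, 0.964 for Snhg12, 0.959 for Fosl2, 0.958 for Spty2d1 and 0.956 for Sesn2. Centred on each of the 8 groups, so that only the spread between replicates is left, the leading genes were Nsfl1c (0.713), Slc52a2 (0.644), Snrnp48 (0.643), Fosl2 (0.615) and Tnfaip1 (0.611). Within the set, the group-centred r was 0.784 between Hspa1a and Hspa1b, which share reads, 0.768 between Hspd1 and Hspe1, which lie head to head, and 0.763 between Dnajb1 and Hspa8. These are descriptions over libraries that share their depth and scaling, and no test was made of them.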

How the data were processed

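RNA was measured in 24 libraries (8 groups of 3), each run on 2 lanes that the tables hold as 1 column. Per the submitters' processing notes, TopHat2 (2.0.13 and 2.0.9), HTSeq and GRCm38 were used; which version served which library, the annotation and the strand setting are not given in the sources used here. The authors deposited, for each region and sex, a normalized signal per library (gene reads over a scaled library size, in RPM), and group means. Per the file headers the authors also deposited an edgeR fold ratio, its log2 value, and p-values with their adjustment, from a test that is not named.

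Reads were recovered from the deposited signal: 100% of the values were whole within 0.01 read, and depth was 16.04 to 25.49 M reads. Of 38924 entries per table, 27 had names turned into dates, and 4 of these that shared a name were left out. All per-sample columns were used (0 were not). Each comparison was fitted over all genes with limma 3.58.1 (R 4.3.3, variance trend) on log2(RPM + 1). Genes had to reach 1 RPM in 3 or more of the 6 libraries, and a Benjamini-Hochberg adjusted p under 0.05 was called. Intervals are 95% intervals of the moderated fit. Differences between regions and sexes were limma contrasts over 24 or 12 libraries, after TMM scaling (edgeR 4.0.16) of the recovered reads. Alternatives were DESeq2 1.42.0 and edgeR on recovered reads, other pseudocounts, filters and scalings, fits without the trend, the replicate block and left-out libraries. After the data were seen 3 were added. These were the fits for the other lists, the block without male hypothalamus replicate 2, and the summed Hsp70 pair between regions. The limma and edgeR fits were also run on simulated counts with known changes, in better-expressed genes and with independent libraries. That run does not cover genes as low as Hspb1 or paired libraries.

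The labels call the replicates biological but do not say whether each is an embryo, a litter or a pool. The p-values therefore cover only the spread seen between replicates, and what that spread holds is not known. Deviations of same-numbered libraries from their group means correlated at 0.494 to 0.872 in female cortex, 0.607 to 0.752 in female hypothalamus and 0.655 to 0.765 in male hypothalamus, so the numbers were taken to pair the libraries there. In male cortex they correlated at 0.0208 to 0.391 and were not. In female cortex dexamethasone replicate 3 correlated at 0.494 with vehicle replicate 3 and at 0.492 with vehicle replicate 2, so the pairing of number 3 is uncertain there.

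All 10 genes were named in every comparison. Of each further list the called members with the largest absolute log2 change were named, up to 4 per list and comparison, except 1 gene of the HSF1-bound list, whose values are not reported here. Members and lists were chosen with earlier results of these data known, so a pattern already seen there is no independent support. Promoter sequences are from RefSeq (GRCm38.p6), exon lengths and positions from GENCODE vM21 (GRCm38).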

Additional observations from a re-analysis of the deposited data

Results flagged for a closer look

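The responses of 5 genes differed between regions by a test of the difference itself, the cortex response minus the hypothalamus response over 24 libraries with limma. The values were -3.39 for Hspa1a and -3.25 for Hspa1b, the inducible Hsp70 genes, -2.67 for the small heat-shock gene Hspb1, -0.85 for the J-domain gene Dnajb1 and -0.42 for the chaperonin lid gene Hspe1. In Hspa1a, Hspa1b and Dnajb1 the difference goes with values that fell in cortex (Dnajb1 in males by the test) and overlapped between treatments in hypothalamus. Hspa1a and Hspa1b averaged at most 1.51 RPM in vehicle hypothalamus, where a fall as large as that in cortex could not be seen. In Hspb1 the difference goes with values that were higher with dexamethasone in all 6 same-numbered hypothalamus pairs. No difference between the sexes was called for any of the 10 genes.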

How the results depend on the processing

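For the 10 heat-shock genes and the called genes of the other lists, no called value changed sign under the alternatives run. For the 10, 646 values kept their direction and their side of the threshold under other pseudocounts, filters, scalings and tests, 14 newly passed, 3 no longer passed and 6 uncalled values changed sign. With libraries left out, 370 kept them, 3 newly passed, 21 no longer passed and 26 uncalled values changed sign. For the called genes of the other lists, run under the same alternatives after the data were seen, 462 values kept the call and 29 lost it, and with libraries left out 225 kept and 99 lost it. In female cortex the calls over all genes, 588, were 1732 with DESeq2 and 5068 with the replicate block, and the block called 5 of the 10 heat-shock genes. In female hypothalamus the 105 calls were 59 with totals as scaling, 291 with DESeq2 and 892 with the block, and 1 of the heat-shock genes, Hspb1, was called with a pseudocount of 0.5 RPM, with DESeq2 and with the block. Hspb1 passed the filter in hypothalamus only through the dexamethasone libraries, and edgeR called it in neither sex. In male hypothalamus the 28 calls were 17 without the trend, 242 with DESeq2 and 1624 with the block, and DESeq2 called 1 and the block 3 of the heat-shock genes. The block without replicate 2, also added after the data were seen, gave 520 calls and 1 heat-shock gene. Between regions the 1943 calls were 5421 with the block, which added Bag3 (adjusted p = 1.56e-05) and Hspb8 (0.000245), although numbers were not shown to pair libraries in male cortex. There the block gave 6868 calls in place of 6279. The cause of these shifts was not tested.

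With replicates left out, calls over all genes ranged from 0 to 1634 in female cortex, 4440 to 5867 in male cortex, 16 to 69 in female hypothalamus, 0 to 18 in male hypothalamus, 514 to 1463 between regions, 0 to 27 between sexes in cortex and 0 to 0 in hypothalamus. Heat-shock genes called ranged from 0 to 4, 6 to 7, 0 to 1, 0 to 0, 4 to 5, 0 to 0 and 0 to 0 in the same order. A fit that leaves out a number has 2 libraries per group and tests with less precision. Depth limits Hspb1, Hspa1a and Hspa1b in hypothalamus and Hspb1 and Hspb8 in cortex. Hspb1 had 0 to 107 reads in each library other than dexamethasone replicate 1 of both hypothalamus groups.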
